A study of Mus musculus with 2 samples.

Results

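The immunity-related GTPase (IRG) and Schlafen genes described here are Irgm1, Irgm2, Igtp and Iigp1 of the first family and Slfn1, Slfn2, Slfn4, Slfn5, Slfn8 and Slfn9 of the second. They are 10 of the 55536 annotated genes measured, and all 10 symbols matched exactly 1 gene each. The genes were chosen by family, with their TPM levels and their ratios between these libraries already known, so both are given as a description and no test was made of them. The RNA was total RNA, depleted of ribosomal RNA, from the chromatin fraction of bone marrow-derived macrophages of C57BL/6J mice, which are cells grown from marrow in culture. Chromatin RNA is enriched for transcripts that are still being made or spliced. The study holds 1 group of 2 libraries, replicate 2 and replicate 1, and the macrophages of both had received lipid A, a bacterial ligand of the receptor TLR4, at 100 ng/ml for 75 min. The RNA input was 500 ng for replicate 2, against 250 ng for replicate 1, and fragments ran from 250 to 400 bases. Both libraries carry the same donor label, age and sex were not collected, and the labels do not say whether the cultures came from separate mice. The SDs below may therefore reflect cultures or library preparation only. No unstimulated cells, other time point or other fraction was analysed here, so none of the values measures a response to lipid A.

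IRG proteins are GTPases of cell-autonomous immunity, made by mouse cells after interferon. Effector members such as Iigp1 load onto the membrane of vacuoles that hold Toxoplasma gondii or Chlamydia trachomatis and disrupt them, and the regulators Irgm1, Irgm2 and Igtp (also called Irgm3) sit on the cell's own membranes and hold the effectors inactive there. In macrophages, lipopolysaccharide leads to interferon beta, and the interferon receptor then acts on IRG genes through STAT and IRF transcription factors. Schlafen proteins fall into a short group (Slfn1 and Slfn2), an intermediate group (Slfn4) and a long group with a helicase-like part (Slfn5, Slfn8 and Slfn9). They were first described for holding back T cell growth, and several bind or cut transfer RNA.

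The DNA ahead of the gene starts is shown first, because letters of the kind that STAT and IRF factors read lie there in 6 of the 9 genes with a promoter window. Each window runs from 250 bases before to 50 bases after a start in RefSeq (build GRCm38.p6). Iigp1 had no entry in the table, and Slfn8 had windows for 2 starts. The letters searched, on both strands, were GAAA and GAAA with any 2 bases between them, the core of the interferon-stimulated response element (ISRE). This core occurred in 3 of 3 IRG windows and for 3 of 6 Schlafen genes (Slfn5, Slfn8 and Slfn9). It is held by 3.44% of the 32851 mouse windows of the same length. Counted by gene, over any window of the gene, the share is 3.99% of 27025 genes. The stretches around it are printed on the strand of the gene, 5′ to 3′, with the ISRE core letters in capitals.

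Irgm1: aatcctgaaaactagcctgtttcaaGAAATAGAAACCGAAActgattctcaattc
Igtp: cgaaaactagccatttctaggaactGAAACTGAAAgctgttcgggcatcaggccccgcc
Irgm2: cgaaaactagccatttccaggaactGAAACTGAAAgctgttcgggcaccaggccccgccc
Slfn5: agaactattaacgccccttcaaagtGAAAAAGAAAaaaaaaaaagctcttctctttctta
Slfn9: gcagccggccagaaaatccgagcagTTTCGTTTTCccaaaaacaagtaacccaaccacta
Slfn8: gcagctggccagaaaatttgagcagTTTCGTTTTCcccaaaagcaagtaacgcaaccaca

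The Irgm1 stretch (chr11:48871421-48871475, minus strand) holds 2 overlapping matches, which begin at positions -30 and -24 counted from the start as 0, and it lies in an exon of the noncoding transcript Irgm1-203. The Igtp stretch (chr11:58199497-58199555, plus strand) and the Irgm2 stretch (chr11:58214888-58214947, plus strand) are nearly the same letters, with 2 of 59 compared bases differing. Over the whole windows, Igtp and Irgm2 were 91.1% identical across 271 aligned bases. The Irgm2 stretch lies within an intron of the form Irgm2-201, which starts far upstream. Both windows also hold TTCNNNGAA, the letters of the gamma-activated site (GAS), another element of interferon-responsive genes. No other member's window held these letters, and 8.3% of all windows and 9.55% of genes hold them. The GAS letters are ttctaggaa in Igtp and ttccaggaa in Irgm2, and they lie 2 bases ahead of the ISRE core without overlapping it.

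The Slfn9 stretch (chr11:82991841-82991900, minus strand) and the Slfn8 stretch (chr11:83020824-83020883, minus strand) carry the ISRE core on the opposite strand, so the capitals are its reverse complement. These 2 stretches differ at 16 of 60 bases when compared without gaps, and the whole windows were 85.0% identical across 280 aligned bases. In Slfn5 (chr11:82951922-82951981, plus strand) the match lies farther out, from position -155 to -146, and runs into a tract of A. The windows of Slfn1, Slfn2 and Slfn4 did not hold the ISRE core letters. The loose NF-kB letters are GGG and CC with any 5 bases between them, held by 50.8% of all windows and 53.5% of genes. They occurred in 4 of 9 members' windows (Igtp, Irgm2, Slfn9 and Slfn1). None of these matches overlaps one of another motif. A match is a description of letters and no evidence of binding.

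**Figure D1:**
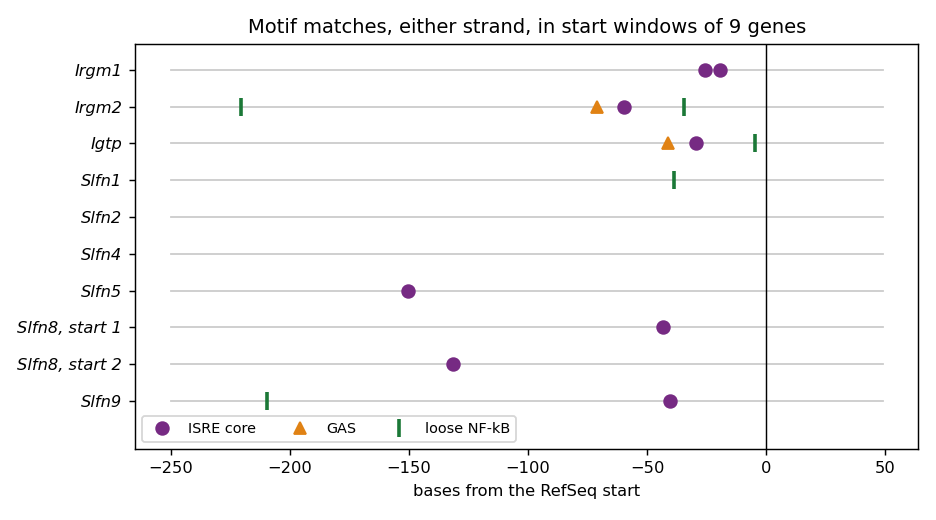
Motif matches on either strand in the start windows of 9 genes, plotted by distance in bases from the RefSeq start, with circles for the ISRE core, triangles for GAS and bars for the loose NF-kB letters. The ISRE core lies in 6 of 9 genes, within 70 bases of the start in Irgm1, Irgm2, Igtp, Slfn9 and the first Slfn8 start, and the GAS letters lie in Irgm2 and Igtp.

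The annotated genes took 29638814 counts in replicate 2 and 21453617 in replicate 1, so 3 counts correspond to 0.101 CPM (counts scaled by depth) in replicate 2 and 0.140 CPM in replicate 1. A ribosomal RNA locus on chromosome 17 held 12.7% of counts in replicate 2 and 41.6% in replicate 1. Levels are given in TPM, the authors' counts per transcript length scaled to a fixed total, and a gene was called expressed at 1 TPM or more in both replicates. TPM is relative to everything else in its table, and the median expressed protein-coding gene had 10.4 TPM in replicate 2 and 5.82 TPM in replicate 1. Of 10 macrophage marker genes, 9 were expressed, with a summed level of 494 TPM in replicate 2 and 310 TPM in replicate 1. No marker of B cells, T and NK cells, neutrophils, stromal and endothelial cells or dendritic cells was expressed in the gene tables (0 of 5 each), and Pax5, Cd3e and Ly6g were at 0 TPM in replicate 2. The authors' second quantification, made directly from the reads, put 4 of these markers at 1 TPM or more in both libraries. Cd3d had 28.8 TPM in replicate 2 and 13.0 TPM in replicate 1, and Pecam1 had 8.67 TPM in replicate 2 and 3.36 TPM in replicate 1. Zbtb46 had 4.11 TPM in replicate 2 and 1.81 TPM in replicate 1, and Ms4a1 had 1.87 TPM in replicate 2 and 1.03 TPM in replicate 1. Their part in the results was not tested. In bulk RNA, fewer cells making a transcript and less of it per cell cannot be told apart.

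Of the 10 genes, 8 were expressed, where 34.7% of all protein-coding genes and 17.4% of all annotated genes were. The Schlafen genes were the more abundant family, with a summed level of 469.8 TPM in replicate 2 and 137 TPM in replicate 1, against 75.8 TPM in replicate 2 and 7.95 TPM in replicate 1 for the IRG genes. Slfn2, Slfn8 and Slfn5 together held 81.4% of the TPM of all 10 genes in replicate 2 and 91.0% in replicate 1. The median member had 16.7 TPM in replicate 2 and 2.46 TPM in replicate 1. All 10 genes had the higher TPM in replicate 2, a direction shared with genes in general. Over expressed protein-coding genes, the median ratio of TPM, replicate 2 over replicate 1, was 1.73. By the ratio of TPM + 0.1, 41.2% of 14442 tested genes were at least 2-fold higher in replicate 2 and 0.706% lower.

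Among the regulatory IRG genes, Irgm1 (ENSMUSG00000046879.7, chr11:48861968-48871683, minus strand) was the most abundant, with 40.6 TPM in replicate 2 and 4.28 TPM in replicate 1 (22.4 ± 25.7, SD, n = 2). Its product is needed for resistance of mice to Mycobacterium tuberculosis and for handling of mitochondria and autophagy. These levels rest on 2631 estimated counts in replicate 2 and 276 in replicate 1. Irgm1 exceeded 82.8% of expressed protein-coding genes in replicate 2 and 41.1% in replicate 1, so it stood well above the middle in 1 library only. Irgm2 (ENSMUSG00000069874.7, chr11:58199618-58222782, plus strand), a regulator found at the Golgi, had 13.3 TPM in replicate 2 and 1.33 TPM in replicate 1 (7.33 ± 8.48, SD, n = 2). Igtp (ENSMUSG00000078853.8, chr11:58199556-58207591, plus strand), a regulator on the endoplasmic reticulum and lipid droplets, had 9.85 TPM in replicate 2 and 0.80 TPM in replicate 1 (5.33 ± 6.40, SD, n = 2). Igtp fell short of the expressed threshold because of replicate 1, where it had 42.1 estimated counts.

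The effector Iigp1 (ENSMUSG00000054072.12, chr18:60376027-60392634, plus strand), also called Irga6, had 12.1 TPM in replicate 2 and 1.54 TPM in replicate 1 (6.82 ± 7.46, SD, n = 2). It lay near Irgm2 and Igtp in both libraries and below Irgm1. In the second quantification it had 24.7 TPM in replicate 2 and 3.52 TPM in replicate 1, above Irgm2 (13.0 in replicate 2 and 1.28 in replicate 1) and Igtp (12.2 in replicate 2 and 0.902 in replicate 1). In each of the 4 IRG genes the SD was larger than the mean, so these 2 libraries fix their levels poorly. The same held for Slfn9 (mean 11.6, SD 12.02) and Slfn1 (mean 0.820, SD 0.891). In replicate 1, Irgm2 and Iigp1 exceeded only 7.19% and 11.5% of expressed protein-coding genes.

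Among the short Schlafen genes, Slfn2 (ENSMUSG00000072620.3, chr11:83065112-83070678, plus strand) had the highest level of all 10 genes, with 178 TPM in replicate 2 and 67.3 TPM in replicate 1 (123 ± 78.1, SD, n = 2). Slfn2 keeps T cells and monocytes in a quiescent state, as mice with the elektra mutation showed, and it shields transfer RNA from cleavage. It exceeded 96.8% of expressed protein-coding genes in replicate 2 and 94.8% in replicate 1, and so was high in both libraries. Slfn1 (ENSMUSG00000078763.2, chr11:83116849-83122670, plus strand), the founding member of the family in thymocytes, had the lowest level, with 1.45 TPM in replicate 2 and 0.19 TPM in replicate 1 (0.820 ± 0.891, SD, n = 2). It had 75 counts in replicate 2 and 9 in replicate 1, so its relative counting error is the largest of the set. The intermediate Slfn4 (ENSMUSG00000000204.16, chr11:83175186-83190216, plus strand), known from activated macrophages and myeloid cells, had 3.91 TPM in replicate 2 and 1.80 TPM in replicate 1 (2.86 ± 1.49, SD, n = 2).

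The long Schlafen genes split by level. Slfn5 (ENSMUSG00000054404.13, chr11:82951349-82964840, plus strand), whose human relative represses herpesvirus transcription, had 132 TPM in replicate 2 and 34.7 TPM in replicate 1 (83.2 ± 68.6, SD, n = 2). Slfn8 (ENSMUSG00000035208.16, chr11:83002158-83020810, minus strand), a regulator of T cell growth, had 135 TPM in replicate 2 and 29.9 TPM in replicate 1 (82.5 ± 74.3, SD, n = 2). Slfn9 (ENSMUSG00000069793.12, chr11:82978390-82991830, minus strand) had 20.1 TPM in replicate 2 and 3.12 TPM in replicate 1 (11.6 ± 12.02, SD, n = 2). Slfn8 was thus several times the level of Slfn9 in each library, although their coding sequences are 92.7% identical over 2730 bases. Of the 50-base words in their transcripts, 14.6% for Slfn8 and 11.5% for Slfn9 also occur in another gene, mainly Slfn10-ps and each other, so part of their reads could have been placed in either.

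By mean TPM the order was Slfn2, Slfn5, Slfn8, Irgm1, Slfn9, Irgm2, Iigp1, Igtp, Slfn4 and Slfn1. Every pair of neighbours in this order overlapped in the range of their 2 values, except Slfn4 and Slfn1. The first 5 ranks were the same genes in both libraries, with Slfn5 and Slfn8 trading places. Slfn4 changed rank the most, being the ninth in replicate 2 and the sixth in replicate 1, above Irgm2, Iigp1 and Igtp.

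**Figure D2:**
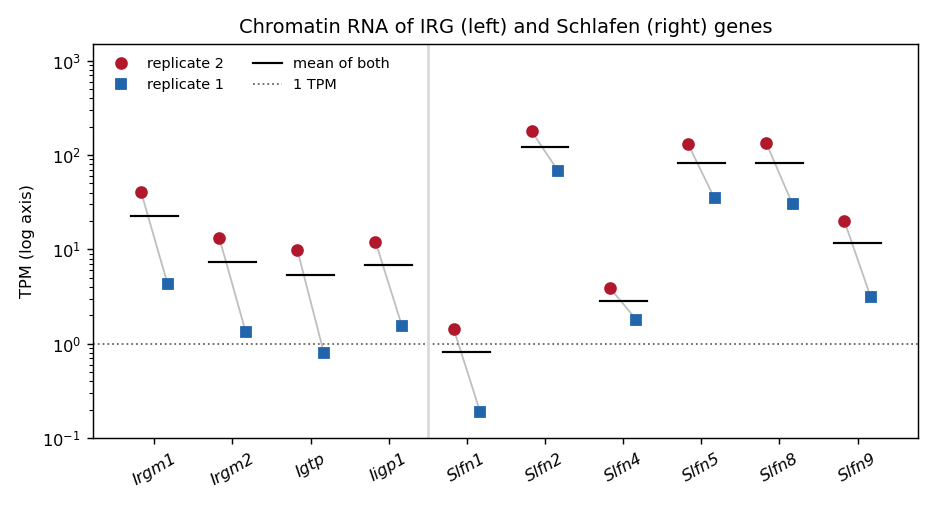
Level of each gene in TPM on a log axis, with circles for replicate 2, squares for replicate 1, bars for the mean of both and a dotted line at 1 TPM. Replicate 2 lies above replicate 1 for all 10 genes. The gap is wide for the 4 IRG genes, Slfn1 and Slfn9 and narrow for Slfn2 and Slfn4. The median expressed protein-coding gene had a TPM ratio of 1.73 in the same direction.

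The libraries were compared on counts scaled by TMM, a method that sets the bulk of genes equal, to ask which of the 10 genes differed beyond the general difference in TPM. With 1 library on each side the ratio has no replicate error, and the intervals given cover counting error only. Of the 10 genes, 7 were at least 2-fold higher in replicate 2 and 0 were at least 2-fold lower, where 8.03% of 14442 tested genes were higher and 5.59% lower. Among expressed protein-coding genes 3.0% were at least 2-fold higher. The genes had been chosen with these differences known, so nothing is read from that count. The median log2 ratio of the 10 genes was 1.77, and it was -0.12 over expressed protein-coding genes, from which the members' median lay 1.89 higher. All 10 genes lay above that protein-coding median.

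The 4 IRG genes had log2 ratios from 2.13 to 2.64. In the second quantification they spread more widely, with 2.51 for Igtp, 2.13 for Irgm2, 1.59 for Iigp1 and 1.51 for Irgm1, and all 4 were still past 2-fold. Igtp was highest at 2.64, or 6.22-fold (95% counting interval of the log2 ratio 2.20 to 3.14). Irgm2 followed at 2.35 (2.09 to 2.63), Irgm1 at 2.17 (2.00 to 2.36) and Iigp1 at 2.13 (1.78 to 2.51). Each exceeded the ratio of more than 99% of expressed protein-coding genes. The counting intervals of all 4 genes, Igtp included, overlapped one another, so their order is not settled. The effector's interval overlapped that of each regulator.

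The 6 Schlafen genes spread over a far wider range, from 0.12 to 1.91 on the log2 scale. Slfn1 had a log2 ratio of 1.91 with a counting interval of 0.98 to 3.17, set by its 9 counts in replicate 1. Slfn9 had 1.63 (1.49 to 1.78) and Slfn8 had 1.27 (1.21 to 1.33), and these 3 genes passed 2-fold. Slfn9 was under 2-fold in the authors' second quantification, at 0.88. Slfn5 had 0.92 (0.87 to 0.97), or 1.89-fold, and Slfn2 had 0.43 (0.37 to 0.50), or 1.35-fold. Slfn4 had 0.12 (-0.13 to 0.37), an interval that spans 0, and it turned to -0.07 in the second quantification. Slfn2, Slfn5, Slfn8, Slfn9 and Slfn1, taken from the highest to the lowest mean TPM, had increasing ratios in the first quantification. Slfn4, low in both level and ratio, was the exception. This order did not hold in the second quantification, where Slfn9 (0.88) lay below Slfn8 (1.08). Its last step rests on Slfn1, whose interval holds the ratios of Slfn8 and Slfn9.

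The share of the ribosomal RNA locus, the amount of RNA used for the library and the replicate number moved together with these ratios and cannot be told apart. Of 10 macrophage markers tested, 0 were at least 2-fold higher in replicate 2, where 8.03% of all tested genes were. At least 2-fold lower were 2 of them (Csf1r and Itgam), where 5.59% of all tested genes were. The part of any of these in the ratios was not tested.

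**Figure D3:**
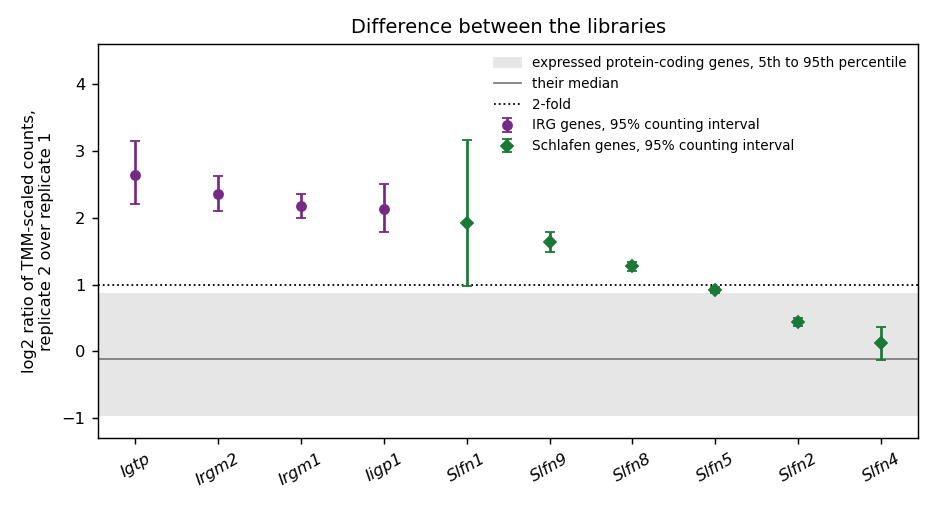
Log2 ratio of TMM-scaled counts, replicate 2 over replicate 1, with 95% counting intervals, circles for IRG genes and diamonds for Schlafen genes; the grey band holds expressed protein-coding genes from the 5th to the 95th percentile (-0.95 to 0.86). All 4 IRG genes lie between 2.13 and 2.64, above the band, whereas Slfn2 and Slfn4 lie inside it.

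The 6 Schlafen genes sit in 1 cluster of 239 kb on chromosome 11, with 15 other annotated genes in or across it. The order along the chromosome is Slfn5, Slfn9, Slfn8, Slfn2, Slfn1 and Slfn4. The first 3 are the long genes, and 2 of them, Slfn9 and Slfn8, are transcribed on the minus strand. Log2 ratios were 0.92, 1.63 and 1.27 for this long side of the cluster. They were 0.43, 1.91 and 0.12 for Slfn2, Slfn1 and Slfn4, so neighbours differed widely on the other side.

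Of the 15 other genes in the cluster, 4 were expressed. Slfn10-ps, an annotated pseudogene next to Slfn8, had 24.8 TPM in replicate 2 and 15.9 TPM in replicate 1, with a log2 ratio of -0.28. Gm11425, an annotated processed pseudogene between Slfn8 and Slfn2, had 17.7 TPM in replicate 2 and 16.0 TPM in replicate 1, with a log2 ratio of -0.79. Gm48434, also annotated as a processed pseudogene, had 1.80 TPM in replicate 2 and 1.76 TPM in replicate 1. Its log2 ratio of -0.90 rests on 17 counts in replicate 2 and 15 in replicate 1. No counting interval was computed for Gm11425 or Gm48434. On TMM-scaled counts these 3 thus lay on the other side of 0 from the Schlafen genes beside them, although in TPM all 3 were higher in replicate 2. They may not be separate signals. Gm48434 lies within the span of Slfn10-ps on the opposite strand, and Gm11425 lies beside Slfn10-ps on its strand. Whether these 3 share reads was not tested. Gm20234, annotated as antisense and lying over Slfn2, had 36.0 TPM in replicate 2 and 12.6 TPM in replicate 1, with a log2 ratio of 0.57.

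**Figure D4:**
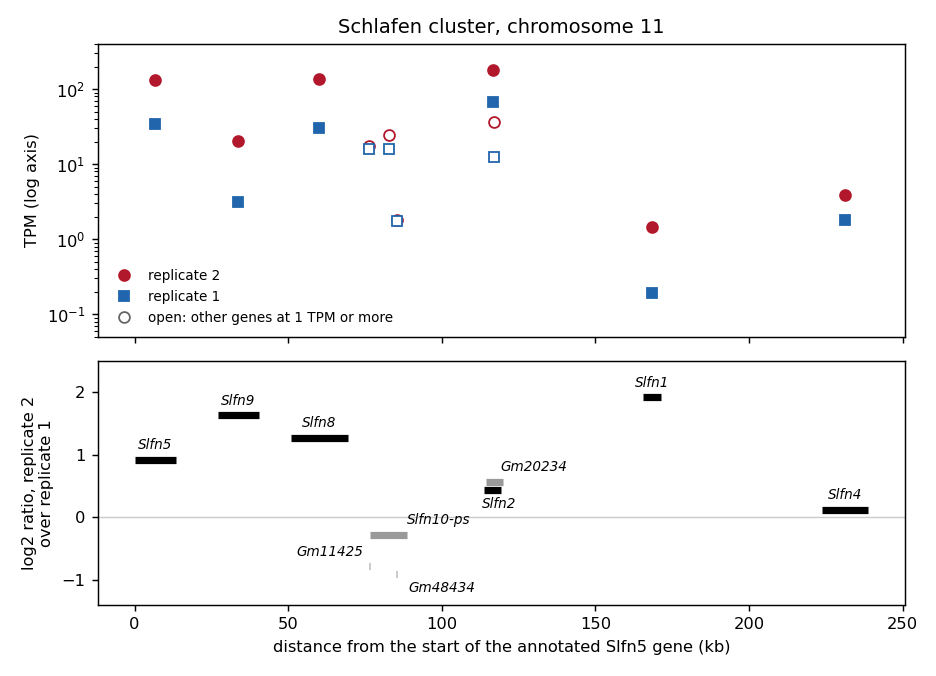
The Schlafen cluster by distance in kb from the start of the annotated Slfn5 gene: the upper panel gives TPM on a log axis (circles replicate 2, squares replicate 1, open symbols for other expressed genes), and the lower panel draws each gene at its log2 ratio, replicate 2 over replicate 1. The Schlafen genes lie above 0, between 0.12 and 1.91, while Slfn10-ps, Gm11425 and Gm48434 lie below 0 on this scale, though not in TPM.

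Igtp and Irgm2 form a second cluster on the same chromosome. It was taken as the 23.2 kb from the Igtp start to the Irgm2 end, which hold no other annotated gene. Gm12250, another IRG gene (chr11:58187739-58189012), lies outside this span, ahead of Igtp. The form Irgm2-201 starts inside the first exon of Igtp. Igtp and Irgm2 share 162 exonic bases, which are 4.39% of Irgm2 and 8.01% of Igtp. Their coding sequences were 74.6% identical, the closest pair among the 4 IRG genes, where the other pairs had 61.7 to 70.6%. Reads in the shared part can be placed in either gene. The authors' posterior SD of the estimated counts was nevertheless small for Irgm2, at 1.85 counts in replicate 2 and 1.26 in replicate 1.

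The 10 genes have 32 annotated transcripts, of which 28 are protein-coding, 4 are processed transcripts with no coding annotation and 0 are retained introns. The main coding form of Igtp was Igtp-201, with 94.6% of the gene's transcript TPM in replicate 2 and 100% in replicate 1. Slfn9-201 held 73.2% of Slfn9 in replicate 2 and 80.5% in replicate 1. Slfn5-201 held 65.8% of Slfn5 in replicate 2 and 64.8% in replicate 1. These 3 were the leading forms of their genes in both libraries and in both quantifications, and the other 5 genes with several forms had no such common leader. In the second quantification Slfn5-201 held less, 37.4% in replicate 2 and 39.2% in replicate 1. Next there were Slfn5-203 in replicate 2 (34.9%) and Slfn5-202 in replicate 1 (30.9%). Igtp-201 held 96.7% in replicate 2 and 100% in replicate 1 there, and Slfn9-201 78.6% in replicate 2 and 89.7% in replicate 1.

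Irgm2 changed its leading form between the libraries. Irgm2-202, which starts downstream of Igtp, held 83.2% in replicate 2 and 22.7% in replicate 1, whereas Irgm2-201, which starts inside Igtp, held 9.68% in replicate 2 and 77.3% in replicate 1. In the second quantification Irgm2-202 led in both, with 61.6% in replicate 2 and 65.9% in replicate 1, so the switch rests on the first quantification. Irgm1 had Irgm1-202 first, with 65.4% in replicate 2 and 49.9% in replicate 1, but the second quantification put Irgm1-201 first in both libraries. Slfn8 was spread over several forms, and Slfn8-206 held 22.7% in replicate 2 and 36.0% in replicate 1 in the first quantification and 0% of both in the second.

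Iigp1 was the 1 gene whose TPM lay mainly on transcripts without coding annotation. The processed transcripts Iigp1-205 and Iigp1-203 together held 69.0% of its transcript TPM in replicate 2 and 74.7% in replicate 1. The second quantification gave 52.6% in replicate 2 and 54.2% in replicate 1, so the share stayed above 50%. These forms end 2.65 and 4.11 kb from the 5′ end of a gene of 16.6 kb, and 92.4% of the bases of Iigp1-205 and 94.0% of those of Iigp1-203 lie outside the exons of the coding forms. RNA that is not yet spliced cannot be told from such transcripts in these tables. Irgm1-203, the other such form with a level above 0 in the first quantification, held 8.16% of Irgm1 in replicate 2 and 15.6% in replicate 1.

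**Figure D5:**
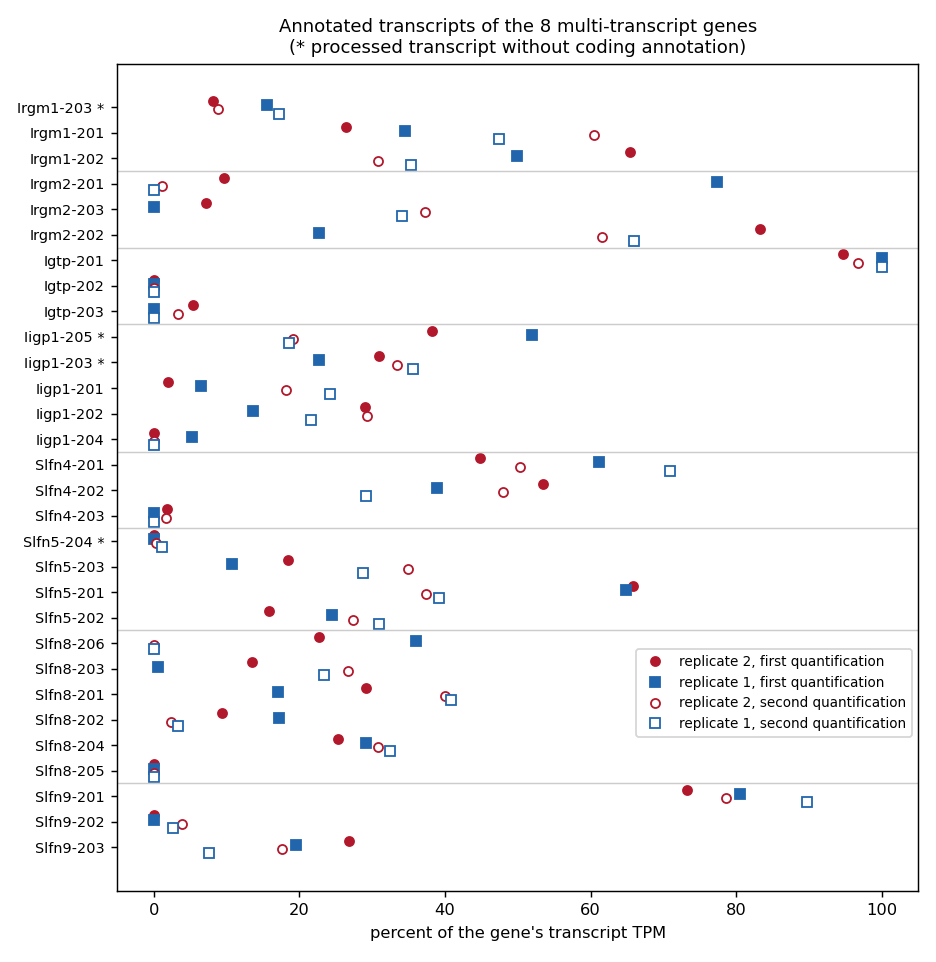
Percent of each gene's transcript TPM on every annotated transcript of the 8 genes with more than 1, with circles for replicate 2 and squares for replicate 1, filled for the first and open for the second quantification. Iigp1-205 and Iigp1-203 together exceed 50% in all 4 cases, and the leading form of Irgm2 in replicate 1 differs between the quantifications.

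The second quantification raised Iigp1 more than the rest. Its estimated count for Iigp1 was 3.39 times the first in replicate 2 and 4.47 times in replicate 1, where the median expressed protein-coding gene had 1.68 in replicate 2 and 1.71 in replicate 1. Irgm1 was at 1.85 times in replicate 2 and 2.65 in replicate 1, and Slfn9 at 1.90 in replicate 2 and 2.90 in replicate 1. In TPM, Slfn5 came to 176 in replicate 2 and 44.5 in replicate 1, above Slfn2 in replicate 2 (168) and below it in replicate 1 (60.7). The same 8 genes were expressed by either quantification.

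Some other IRG genes had ratios like those of the members. Of 14 listed, 7 were expressed in the first quantification. Tgtp2, Gm4951, Gm4841 and Gm12185 reached 1 TPM in both libraries in the second quantification only. Of the 10 that could be compared, 4 were at least 2-fold higher in replicate 2 and 0 lower, where 8.03% of all tested genes were higher and 5.59% lower. The highest mean was that of Ifi47, also called Irgd, which had 22.4 TPM in replicate 2 and 1.87 TPM in replicate 1 (log2 ratio 2.83). Next, 9930111J21Rik1 had 15.6 TPM in replicate 2 and 6.09 TPM in replicate 1. Its near-copy 9930111J21Rik2 had 16.5 TPM in replicate 2 and 3.38 TPM in replicate 1. Their counts carry some uncertainty, with posterior SDs in replicate 2 of 61.9 for 1207 counts and 61.6 for 1784 counts. Tgtp2, an effector of the Irgb6 kind, had 10.4 TPM in replicate 2 and 0.56 TPM in replicate 1 (log2 ratio 3.11). Gm12250, which encodes Irgb10 and is annotated here as a processed pseudogene, had 16.4 TPM in replicate 2 and 1.74 TPM in replicate 1 (log2 ratio 2.26). Gm5431 had 9.53 TPM in replicate 2 and 1.07 TPM in replicate 1 (log2 ratio 2.18). These 4 genes lay in or above the range of the 4 IRG members. The other 6 genes compared all lay below it, with log2 ratios of 0.96 for 9930111J21Rik2, 0.63 for Gm4951, 0.41 for Gm12185, 0.19 for 9930111J21Rik1, 0.07 for F830016B08Rik and -0.53 for Irgq, a divergent relative. The ISRE core was in the windows of 5 of 9 other IRG genes, namely Tgtp2, Gm12250, Gm12185, 9930111J21Rik1 and Tgtp1, whose counts were too low for a ratio. It was not in the window of Gm5431. Of 5 other Schlafen genes, 2 were expressed, and Slfn3, an intermediate member close to Slfn4, had 10.04 TPM in replicate 2 and 2.72 TPM in replicate 1 (log2 ratio 0.86). Slfn5os, on the strand opposite Slfn5 with 559 exonic bases in common, had 3.58 TPM in replicate 2 and 0.29 TPM in replicate 1. The second quantification gave Slfn5os 19.3 TPM in replicate 2 and 1.62 TPM in replicate 1. Its log2 ratio of 2.31 rests on 35.8 counts in replicate 2 and 2.66 in replicate 1 (posterior SD 2.94), with a counting interval of 0.85 to 4.85. With use of strand not stated, Slfn5 and Slfn5os may share reads.

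The guanylate-binding proteins (GBPs), large interferon-inducible GTPases that act on the same vacuoles, had lower ratios and a higher median level than the IRG members. The median of all 11 was 28.3 TPM in replicate 2 and 11.8 TPM in replicate 1, against 12.7 TPM in replicate 2 and 1.44 TPM in replicate 1 for the 4 IRG members and 75.9 TPM in replicate 2 and 16.5 TPM in replicate 1 for the Schlafen members. Of 11 GBP genes, 8 were expressed, with log2 ratios of 0.49 to 0.97 on TMM-scaled counts and a median of 0.82. Of these, 0 were at least 2-fold higher or lower, where 8.03% of all tested genes were higher and 5.59% lower. All 8 ratios lay above the median of expressed protein-coding genes (-0.12) and above those of Slfn2 (0.43) and Slfn4 (0.12). Gbp5, which takes part in inflammasome activation, had 629 TPM in replicate 2 and 203 TPM in replicate 1. Gbp7 had 52.8 TPM in replicate 2 and 17.4 TPM in replicate 1, and Gbp3 had 54.1 TPM in replicate 2 and 14.8 TPM in replicate 1. All 8 GBP ratios lay below the ratios of the 4 IRG members. The ISRE core was in all 5 GBP windows in the table, those of Gbp2, Gbp2b, Gbp3, Gbp5 and Gbp7.

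Genes of interferon signalling, upstream of the IRG genes, were all expressed (15 of 15). On TMM-scaled counts 2 of them were at least 2-fold higher in replicate 2 and 0 were lower, where 8.03% of all tested genes were higher and 5.59% lower. Ifnb1, the interferon beta gene, had 73.3 TPM in replicate 2 and 10.5 TPM in replicate 1 (log2 ratio 1.85). Irf7, which amplifies interferon production, had 56.7 TPM in replicate 2 and 12.9 TPM in replicate 1 (log2 ratio 1.18). The 3 most abundant differed less, with log2 ratios of 0.24 for the transcription factor gene Irf1 (351 TPM in replicate 2 and 157 TPM in replicate 1), 0.20 for the kinase gene Jak2 (181 TPM in replicate 2 and 83.02 TPM in replicate 1) and 0.14 for Stat2 (184 TPM in replicate 2 and 77.5 TPM in replicate 1). The median log2 ratio of the 15 was 0.17. Of the 10 genes of ATG8 conjugation, the autophagy machinery that IRG effectors need in order to load onto vacuoles, 8 were expressed. Of the 9 tested, 0 were at least 2-fold higher or lower, where 8.03% of all tested genes were higher and 5.59% lower. Atg7, the activating enzyme of that system, had 23.9 TPM in replicate 2 and 24.6 TPM in replicate 1. Atg16l1, which directs conjugation to a membrane, had 24.3 TPM in replicate 2 and 15.9 TPM in replicate 1, and Gabarap, a member of the ATG8 family, had 21.1 TPM in replicate 2 and 14.0 TPM in replicate 1.

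The genes most like the leading member of each family were sought by the distance of log2(TPM + 1) over the 2 libraries, among expressed protein-coding genes. For Irgm1 these were Usp18, which removes the ubiquitin-like ISG15 (32.2 TPM in replicate 2 and 5.09 TPM in replicate 1, distance 0.386), Ifi209 (0.428) and C130026I21Rik (0.501). For Slfn2 they were Abi1, a subunit of the actin-regulating WAVE complex (163 TPM in replicate 2 and 67.8 TPM in replicate 1, distance 0.125), Gm21188 (0.134) and Ankrd44 (0.138). With only 2 values per gene, likeness means a similar level and a similar gap between the libraries.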

How the data were processed

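Both libraries come from chromatin RNA of lipid A-treated macrophages. Per the deposited text with each library, the authors aligned reads to the mm10 transcriptome with GENCODE M21 and deposited estimated counts (expected counts), TPM and FPKM per gene and transcript. A second transcript table of estimated counts and TPM was made directly from the reads. The deposited posterior mean and SD of the counts are scores of the same estimate. The aligner, the quantifier, their versions and any use of strand were not given in the sources used here.

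Another 26345 entries that name no annotated gene held 0.277% of counts in replicate 2 and 0.409% in replicate 1 and were left out. All 55536 genes matched GENCODE M21, and 86 are not in the second quantification. Expected counts were rounded. TMM factors (edgeR 4.0.16, R 4.3.3) were 1.24 for replicate 2 and 0.810 for replicate 1, over genes with at least 20 counts in sum. Ratios have exact binomial 95% intervals, which cover counting error only, since there is 1 library on each side. The intervals take the rounded counts and the TMM factors as exact. They also treat each count as independent, which could not be checked because the tables carry no molecular identifiers. Python 3.11.15 (numpy 2.4.6, pandas 2.3.3, scipy 1.17.1, matplotlib 3.10.9) did the rest, and the ratio step was tested on simulated data.

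No p-value was computed. The members and lists were chosen with earlier results of these data known. Named genes were all 10 members, the 3 of highest mean TPM in each list of relatives or pathway genes, expressed genes between clustered members and the 3 most like the leading member of each family. The remaining IRG relatives, Ifnb1, Irf7 and single cell markers were named after their values were seen. Motifs were searched in RefSeq promoter windows. Alternatives were DESeq2 1.42.0 size factors, other scalings, thresholds and filters, FPKM, the second quantification and leaving out a replicate. Protein sequences were not analysed here.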

Additional observations from a re-analysis of the deposited data

How the results depend on the processing

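The number of members expressed was 8 and became 5 at a threshold of 2 TPM, 9 at 0.5 TPM or by FPKM and 10, Igtp and Slfn1 included, with TPM rescaled over protein-coding genes. Their median of 9.59 TPM became 42.3 under that rescaling, and all 10 single levels moved with it. Leaving out each replicate gave 8 to 10 members at 1 TPM or more, a median of 2.46 to 16.7 TPM and 97.9 to 98.7% of transcript TPM on coding transcripts, which was 98.3% and became 97.3% in the second quantification. Of 14442 tested genes, 1160 (8.03%) were at least 2-fold higher in replicate 2. Over the same genes there were 4043 by library size, 3296 with TPM + 1, 5950 with TPM + 0.1 and 2805 at 1.5-fold. The second quantification gave 1251 of 24106 tested genes (5.19%). There were 2801 of 22588 (12.4%) without a filter and 675 of 10306 (6.55%) at 100 or more counts. The 808 lower genes (5.59%) became 155 by library size, 52 with TPM + 1, 102 with TPM + 0.1 and 2556 at 1.5-fold. Over the other numbers tested, they became 1283 (5.32%) in the second quantification, 3431 (15.2%) without a filter and 406 (3.94%) at 100 or more counts. Under these settings and DESeq2 size factors, 6 to 10 members were higher and 0 lower. Their median lay 1.53 to 1.89 above that of expressed protein-coding genes by TMM, DESeq2 size factors, library size, both TPM ratios and the second quantification. The cause of these moves was not tested. No paired analysis was possible because the series has 1 group. The ratio needs both libraries, so neither could be left out of it. With 2 libraries no spread of a ratio can be had, and Slfn1, with 9 counts in replicate 1, is limited by depth.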
